A study of Homo sapiens with 9 samples.

Results

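The ETS transcription factors described here are 10 genes of the count table, ERG, ETV1, ETV4, ETV5, FLI1, EHF, ELF3, SPDEF, ETS1 and ETS2, taken by their symbols from the 28216 genes of the table. The other 18 human ETS family genes were also in the table and are given more briefly. ERG, ETV1, ETV4, ETV5 and FLI1 are members of the family that have been found in prostate cancer gene fusions, EHF, ELF3 and SPDEF are the epithelial members, and ETS1 and ETS2 are the founding members.

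The series holds 9 RNA-seq libraries of 2 established lines from metastases of human prostate cancer, all labelled as wild type. 3 libraries came from untreated PC3 cells, a line from a bone metastasis that grows without androgen, kept in F12K medium with whole serum. LNCaP cells, an androgen-responsive line from a lymph node metastasis, were first held in RPMI without phenol red and with charcoal-stripped serum, which is depleted of steroids, for 24 h. They then received either 10 nM dihydrotestosterone (DHT) for 48 h (3 libraries) or the vehicle, 0.01% ethanol, for the same time (3 libraries). The main text of the study names R1881 as the androgen where the labels name DHT, and the labels' name is used here. Medium, serum and line differ together between PC3 and LNCaP cells and cannot be told apart, and each line stands for 1 tumour.

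ETS factors share a DNA-binding domain that recognises a purine-rich site around the letters GGAA, and they differ in their partners and in the signals that act on them. ETV1, ETV4 and ETV5 form the PEA3 subfamily, which acts downstream of receptor tyrosine kinases and the MAPK cascade. Their proteins are marked for degradation by the ubiquitin ligase adaptor COP1, and their genes are repressed by CIC. ERG and FLI1 are close relatives with roles in blood and vessel cells. In many prostate tumours the androgen-driven start of TMPRSS2 or of another prostate gene is joined to ERG, and less often to ETV1, ETV4 or ETV5, so that an ETS factor comes under androgen control. LNCaP cells are known for another rearrangement, in which the ETV1 locus of chromosome 7 lies within MIPOL1 on chromosome 14. EHF, ELF3 and SPDEF are found mainly in epithelia, SPDEF above all in secretory cells such as those of the prostate.

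Each library had between 17397706 and 25640325 counts on genes. The prostate luminal markers matched the labels, since KLK3, the gene of prostate-specific antigen, had 86989 to 88995 counts in DHT-treated LNCaP cells, 9831 to 12789 in vehicle-treated LNCaP cells and 2 to 20 in PC3 cells. All 4 epithelial markers (EPCAM, KRT8, KRT18, CDH1) had at least 229 counts in every library. In PC3 cells, however, all 4 were called lower than in DHT-treated LNCaP cells, and 3 of 4 lower than in vehicle-treated ones. CDH5 and CD3E, defining markers of endothelial and T cells, had 0 counts in every library. PTPRC, which marks blood cells, reached at most 7 counts. Among the other endothelial markers, PC3 libraries had 47 to 85 counts of PECAM1 and 77 to 123 of KDR, and LNCaP libraries had 148 to 335 counts of VWF. The fibroblast marker COL1A1 had between 255 and 1013 counts and COL1A2 at most 6. TEK, CD14, DCN, LUM and PDGFRB, further markers of these lists, had at most 26 counts in any library. In bulk RNA, fewer cells with a transcript and less of it per cell cannot be told apart.

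Levels are given as CPM, counts brought to a common library size with TMM factors over all 9 libraries, as mean ± SD over 3 libraries unless stated. Differences are log2 fold changes from edgeR's quasi-likelihood test, fitted on the 6 libraries of a comparison, with Benjamini-Hochberg adjustment over all genes tested. Genes with an adjusted p under 0.05 and a difference of 2-fold or more were called. Genes were tested where more than 3 CPM were reached in at least 3 of those libraries, and 0 counts allow up to 3 counts, or 0.118 to 0.165 CPM depending on the library, by counting error alone. The labels do not say whether the replicates are separate cultures, and the study's RNA-seq methods name a batch term without naming the batches, so the p-values measure the spread between these libraries, which may be technical.

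Between the lines, 9 of the 10 members passed the filter and 9 of 9 were called against DHT-treated LNCaP cells, 5 higher and 4 lower in PC3 cells, where 46.0% of all 12541 genes tested were called. Against vehicle-treated LNCaP cells 8 of 9 were called, of which PC3 cells had 5 higher and 3 lower, against 43.2% of 12686 genes. Calls higher in PC3 cells made up 24.0% of all genes tested in the former comparison and 22.2% in the latter, and calls lower in them 22.1% and 21.0%. The libraries of the 2 groups did not overlap for 9 of 9 members in either comparison of PC3 cells, which held for 86.4% and 85.9% of all genes tested. Both comparisons use the same PC3 libraries. ETV4, ETV5, ETS1 and FLI1 passed the filter through PC3 cells alone, where they are high, so a difference was built into their being tested and the counts over all 9 members are a description. Of the 5 members above 3 CPM in every library, 5 were called against DHT-treated and 4 against vehicle-treated LNCaP cells. Between DHT and vehicle, 5 members passed the filter and 1 of 5, SPDEF, was called, against 14.0% of 11697 genes. The members called higher in PC3 cells were ETV4, ETV5, ETS1, ETS2 and FLI1 in both comparisons, and ETV1, EHF and ELF3 were called lower in both. SPDEF was called lower than in DHT-treated cells and was not called against vehicle-treated cells.

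**Figure D1:**
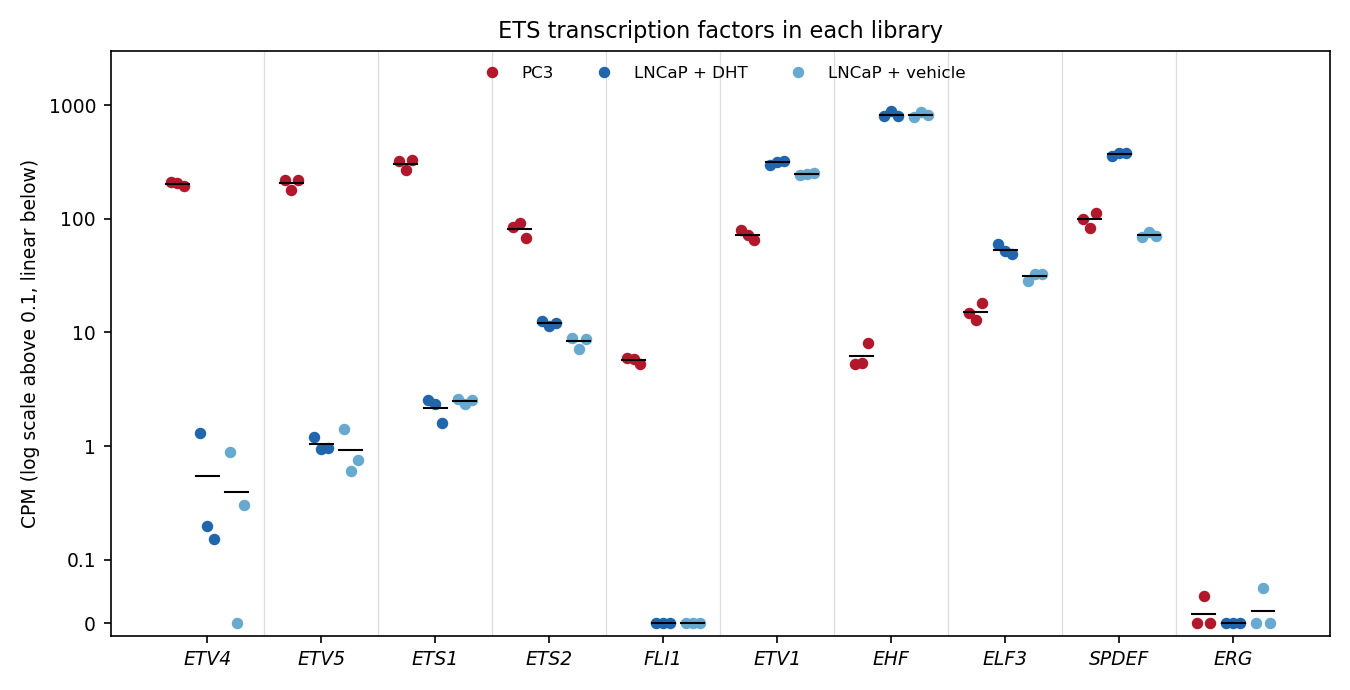
Level of each of the 10 ETS genes in each library, in CPM on a scale that is logarithmic above 0.1 and linear below, with points for the 9 libraries and lines for the group means. ETV4, ETV5 and ETS1 lay near or below 2.6 CPM in every LNCaP library and above 179 CPM in every PC3 library, EHF had the opposite order, and SPDEF was high in LNCaP cells with DHT.

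The promoters of 3 members are shown to accompany their results, SPDEF because it was the member called with androgen, EHF because its mean levels in both LNCaP groups lay close together, and ETV1 because its locus is rearranged in LNCaP cells. Each is the window from 250 to 11 bases before a RefSeq transcript start on GRCh38.p14, written 5′ to 3′ on the strand of the gene and overlapping no annotated exon. Capitals mark the letters CCGGAA, an ETS-type site, where they were found.
SPDEF, chr6:34556340-34556579, minus strand: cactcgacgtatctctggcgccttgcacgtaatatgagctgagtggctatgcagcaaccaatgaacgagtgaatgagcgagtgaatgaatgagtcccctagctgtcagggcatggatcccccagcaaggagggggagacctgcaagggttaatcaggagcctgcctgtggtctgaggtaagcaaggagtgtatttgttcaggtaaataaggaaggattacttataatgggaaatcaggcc
EHF, chr11:34624007-34624246, plus strand: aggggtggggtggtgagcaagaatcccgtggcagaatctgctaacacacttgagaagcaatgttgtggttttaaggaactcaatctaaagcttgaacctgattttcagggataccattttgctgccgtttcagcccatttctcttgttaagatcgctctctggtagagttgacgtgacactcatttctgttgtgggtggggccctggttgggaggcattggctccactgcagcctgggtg
ETV1, chr7:13991436-13991675, minus strand: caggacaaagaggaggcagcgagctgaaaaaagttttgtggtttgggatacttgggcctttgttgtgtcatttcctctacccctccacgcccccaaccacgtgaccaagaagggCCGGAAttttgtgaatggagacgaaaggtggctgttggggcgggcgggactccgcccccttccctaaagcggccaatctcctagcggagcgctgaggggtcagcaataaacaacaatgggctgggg

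Both strands of the whole RefSeq windows, from 250 bases before to 50 after each start, were searched for the ETS-type letters CCGGAAGT and CCGGAA, which overlap, for the androgen response element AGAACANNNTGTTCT and for its 6-base part AGAACA. Among 35116 promoter windows of all genes, CCGGAAGT was found in 4.138%, CCGGAA in 17.25%, AGAACA in 14.79% and the whole androgen response element in 1 window. The SPDEF window and both EHF windows held none of these 4. For ETV1, 3 of 6 windows held CCGGAA and 2 held AGAACA. The 2 windows with AGAACA overlap and share the same AGAACA site and the same CCGGAA site. A match is a run of letters and no evidence that a factor binds there, and the absence of a match covers these letters in these windows.

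In the PEA3 subfamily, ETV1 was the member with reads at a high level in both lines. ETV1 lies at chr7:13891229-13991425 on the minus strand. Its level was 79.5, 71.4 and 64.4 CPM in the 3 PC3 libraries, 297, 318 and 322 CPM in the DHT-treated LNCaP libraries and 243, 247 and 250 CPM in the vehicle-treated ones. All 6 LNCaP libraries lay above all 3 PC3 libraries, and the 3 DHT-treated libraries lay above the 3 vehicle-treated ones. The log2 fold change of PC3 cells was -2.12 (SE 0.09, adjusted p = 2.51e-07) against DHT-treated and -1.76 (SE 0.09, adjusted p = 6.03e-07) against vehicle-treated LNCaP cells, and both were called. With DHT the log2 fold change was 0.34 (SE 0.04, 95% interval 0.26 to 0.42, adjusted p = 2.92e-06), a 1.27-fold difference that was larger than the spread between libraries and under the 2-fold limit.

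Of genes near ETV1 at its normal place and at the place of the known insertion, DGKB, TTC6 and FOXA1 were called lower in PC3 cells and MIPOL1 was not called. DGKB, a diacylglycerol kinase gene beside ETV1 on chromosome 7, had 3 to 5 counts in the PC3 and 269 to 362 in the LNCaP libraries, with log2 fold changes of PC3 cells of -6.63 against DHT-treated and -6.45 against vehicle-treated cells. MIPOL1, which holds the insertion on chromosome 14, had 885 to 903 counts in PC3 and 903 to 1181 in LNCaP libraries and was not called in any of the 3 comparisons. Brought to a common library size, MIPOL1 stood at 36.4 CPM in PC3 cells, 46.4 with DHT and 60.0 with vehicle. Its log2 fold changes of PC3 cells were -0.35 (adjusted p = 0.00366) and -0.70 (adjusted p = 3.17e-05) by the quasi-likelihood test, under the 2-fold limit. Its neighbours TTC6 and FOXA1, the latter a pioneer factor of luminal prostate cells, were called lower in PC3 cells, TTC6 at -3.34 and -3.10 and FOXA1 at -2.21 and -2.16. None of these 4 genes was called between DHT and vehicle (DGKB 0.16, MIPOL1 -0.37, TTC6 0.22 and FOXA1 0.02 on the log2 scale). A count per gene does not say from which copy or chromosome a read came.

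ETV4, at chr17:43527844-43579620 on the minus strand, was high in PC3 cells and nearly without reads in LNCaP cells. PC3 libraries had 5319, 4778 and 4910 counts (204 ± 8.43 CPM). DHT-treated LNCaP libraries had 29, 4 and 3 counts and vehicle-treated ones 17, 0 and 6. In both LNCaP groups the library numbered 1 held most of the reads. PC3 cells had a log2 fold change of 8.46 (SE 0.38, adjusted p = 3.4e-07) against DHT-treated and 8.98 (SE 0.37, adjusted p = 2.46e-07) against vehicle-treated LNCaP cells. Without the DHT-treated library 1 the former was 10.16, and without the vehicle-treated library 1 the latter was 10.31, so few reads of 1 library in each LNCaP group set the size of this difference.

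ETV5, at chr3:186046314-186110318 on the minus strand, had 5520, 4138 and 5581 counts in PC3 libraries, or 206 ± 22.5 CPM. In LNCaP libraries it had 27, 19 and 19 counts with DHT and 27, 11 and 15 with vehicle. The PC3 and LNCaP libraries did not overlap, and the LNCaP groups did. The log2 fold change of PC3 cells was 7.62 (SE 0.14, adjusted p = 1.21e-08) against DHT-treated and 7.80 (SE 0.21, adjusted p = 3.68e-08) against vehicle-treated LNCaP cells. ETV4 and ETV5 did not pass the filter between DHT and vehicle.

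ERG had 2 counts in all 9 libraries together, 1 in PC3 library 2 and 1 in the vehicle-treated LNCaP library 2. No fold change is given, because every group was at or under the limit of 3 counts per library. ERG lies at chr21:38380027-38661780, and ETS2, which was read in every library, lies 143.402 kb away from it. FLI1, the nearest relative of ERG, had 150, 135 and 134 counts in PC3 libraries (5.69 ± 0.342 CPM) and 0 counts in all 6 LNCaP libraries. Against the limit of 3 counts per library, FLI1 was at least 37.6-fold higher in PC3 than in DHT-treated LNCaP cells (adjusted p = 3.36e-06) and at least 34.6-fold higher than in vehicle-treated ones (adjusted p = 3.56e-06). Of the 5 endothelial markers, PECAM1 (47 to 85 counts) and KDR (77 to 123) were read in PC3 libraries as FLI1 was, whereas CDH5 had 0 counts there and VWF and TEK at most 2 and 3.

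FLI1 and ETS1 are neighbours on chromosome 11, with 98.976 kb between them, and both were higher in PC3 cells. ETS1, at chr11:128458761-128587558 on the minus strand, is a factor phosphorylated by the MAP kinase ERK. It had 8109, 6153 and 8291 counts in PC3 libraries, 57, 48 and 32 in DHT-treated and 50, 43 and 50 in vehicle-treated LNCaP libraries. At 305 ± 32.5 CPM it had the highest CPM of the 10 genes in PC3 cells, although per kb of exon ETV4 and SPDEF had higher means. Between the lines it was 7.12 on the log2 scale (SE 0.16, adjusted p = 2.06e-08) against DHT-treated and 6.94 (SE 0.11, adjusted p = 9.97e-09) against vehicle-treated LNCaP cells, and their libraries did not overlap. The LNCaP groups overlapped at 2.18 ± 0.498 and 2.51 ± 0.134 CPM, and ETS1 did not pass the filter between them.

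ETS2, at chr21:38805183-38824955 on the plus strand, is the closest relative of ETS1 and was read in both lines. Its level was 83.9, 91.5 and 68.1 CPM in PC3 libraries, 12.7, 11.4 and 12.2 CPM with DHT and 9.02, 7.13 and 8.84 CPM with vehicle. The 3 groups did not overlap and stood in the order PC3, DHT, vehicle. For PC3 cells the log2 fold change was 2.75 (SE 0.13, adjusted p = 5.04e-07) against DHT-treated and 3.31 (SE 0.15, adjusted p = 4.29e-07) against vehicle-treated LNCaP cells. With DHT it was 0.53 (SE 0.11, 95% interval 0.30 to 0.77, adjusted p = 0.000542), under the 2-fold limit.

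Among the epithelial members, EHF differed most between the lines. EHF, at chr11:34621093-34663288 on the plus strand, codes for a factor of glandular and squamous epithelia. PC3 libraries had 133, 125 and 203 counts, DHT-treated LNCaP libraries 17910, 17778 and 15739 and vehicle-treated ones 15019, 15903 and 15927. The log2 fold change of PC3 cells was -7.04 (SE 0.17, adjusted p = 2.6e-08) and -7.02 (SE 0.17, adjusted p = 2.5e-08). In LNCaP cells EHF stood at 824 ± 46.3 CPM with DHT and 823 ± 44.4 CPM with vehicle. The log2 difference between them was 0.00, with a 95% interval from -0.10 to 0.11 (SE 0.05, adjusted p = 0.946), so a change of the size seen for SPDEF lies far outside the interval. The 4 epithelial markers were also lower in PC3 than in DHT-treated LNCaP cells, with log2 fold changes from -5.86 (CDH1) to -1.83 (EPCAM). Against vehicle-treated cells CDH1 (-5.58), EPCAM (-1.94) and KRT8 (-1.04) were called lower and KRT18 (-0.22) was not called. Between DHT and vehicle KRT8 (2.58) and KRT18 (1.88) were called higher, and CDH1 (0.26) and EPCAM (-0.14) were not called. The part of these markers in the differences of EHF and ELF3 was not tested. ELF5, an epithelial ETS gene 95.899 kb from EHF, had 0 counts in the 3 PC3 libraries, 22 to 32 with DHT and 41 to 61 with vehicle.

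SPDEF was the member called with androgen. It lies at chr6:34537802-34556333 on the minus strand, and its promoter is shown above. Its level was 360, 380 and 376 CPM in DHT-treated LNCaP libraries and 68.7, 76.7 and 70.0 CPM in vehicle-treated ones, with no overlap. With DHT it rose 5.19-fold (log2 fold change 2.37, SE 0.05, 95% interval 2.27 to 2.48, adjusted p = 2.04e-13), and 6.54% of all genes tested were called higher with DHT. In all 17 alternatives its log2 fold change lay between 2.34 and 2.42 and it was called.

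The place of PC3 cells in the range of SPDEF depended on which LNCaP group they were set beside. PC3 libraries had 98.8, 83.4 and 113 CPM, above all 3 vehicle-treated and below all 3 DHT-treated LNCaP libraries. The log2 fold change of PC3 cells was -1.91 (SE 0.10, adjusted p = 7.96e-07) against DHT-treated cells, which was called. Against vehicle-treated cells it was 0.48 (SE 0.10, 95% interval 0.24 to 0.72, adjusted p = 0.00306), a difference of opposite sign under the 2-fold limit. By the distance of centred log2 CPM over the 9 libraries, the genes with the pattern most like SPDEF among 12843 genes were NAMPT, an enzyme of NAD salvage (distance 0.416), and CAP2, an actin-binding protein (distance 0.423).

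ELF3, at chr1:202007945-202017183 on the plus strand, codes for an epithelial factor related to EHF. Its level was 14.7, 12.9 and 18.2 CPM in PC3 libraries, 59.6, 51.6 and 48.8 CPM with DHT and 28.6, 32.4 and 32.4 CPM with vehicle. The 3 groups did not overlap. Against DHT-treated LNCaP cells PC3 cells had a log2 fold change of -1.81 (SE 0.14, adjusted p = 7.02e-06). Against vehicle-treated cells it was -1.004 (SE 0.13, 95% interval -1.30 to -0.71, adjusted p = 0.000138), which lies at the 2-fold limit. That call was lost in 7 of 16 alternatives, among them those without PC3 library 1 (-0.99), PC3 library 2 (-0.91), vehicle-treated library 2 (-0.98) and vehicle-treated library 3 (-0.98). With DHT, ELF3 had a log2 fold change of 0.78 (SE 0.08, 95% interval 0.61 to 0.96, adjusted p = 1.32e-06), under the limit. Of the 74-base stretches of its transcripts, 14.7% also occur in transcripts of other genes, among them its antisense gene ELF3-AS1, with either strand counted as a match, and for the other 9 members this share was at most 2.25%.

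Within the 10 genes, then, 4 of 5 tested members stayed under the 2-fold limit with androgen, of which ETV1, ELF3 and ETS2 had an adjusted p under 0.05. With SPDEF, 4 of 5 members had such an adjusted p, beside 8763 of all 11697 genes tested. In ETV1, ELF3, SPDEF and ETS2 all 3 DHT-treated libraries lay above all 3 vehicle-treated ones, a separation that 77.8% of all genes tested between these groups showed in one direction or the other. The median log2 fold change with DHT was 0.53 over the 5 members tested and -0.01 over all genes tested.

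**Figure D2:**
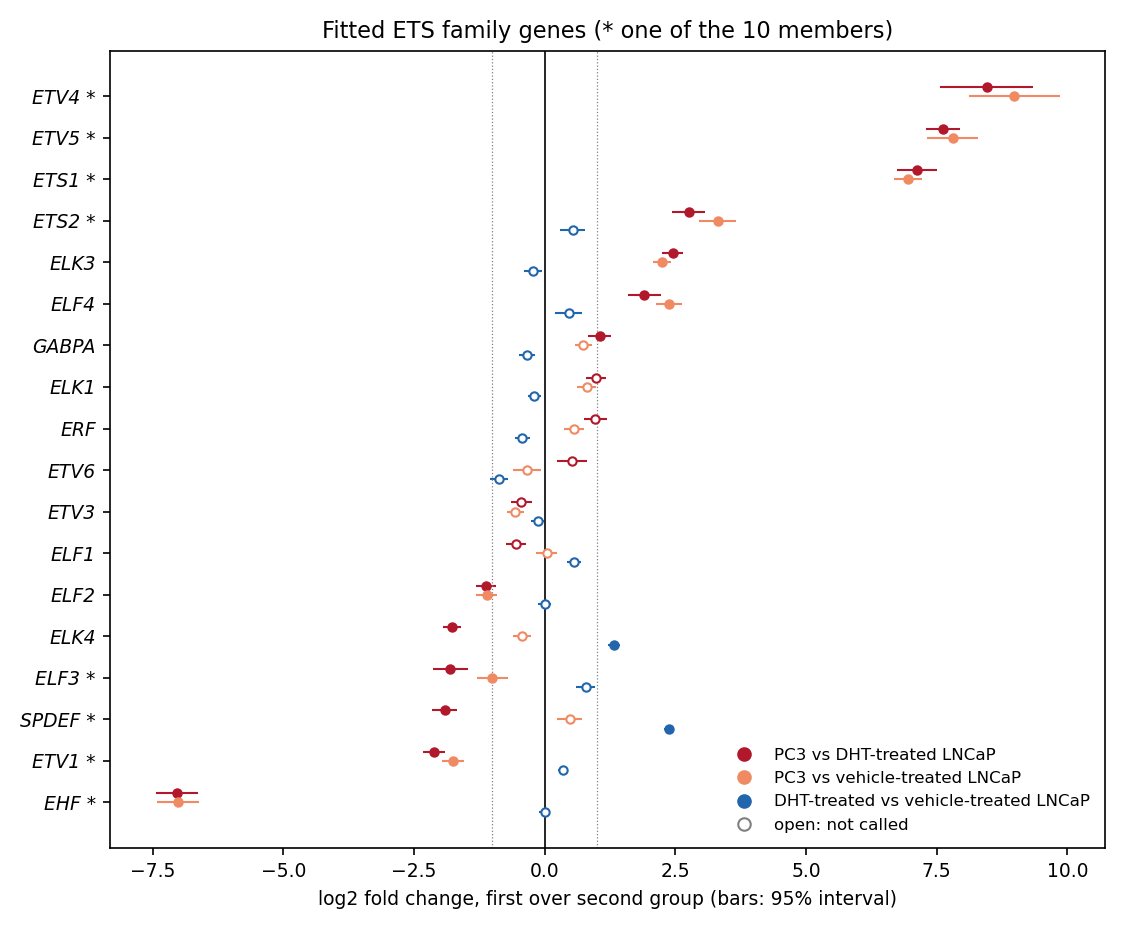
Log2 fold changes with 95% intervals from edgeR for the ETS family genes that passed the filter, with 1 colour for each comparison, filled points for genes called and open points for genes not called, and dotted lines at a 2-fold difference. Stars mark 8 of the 10 members, because FLI1, with 0 counts in LNCaP cells, and ERG are not drawn, and intervals of ETV4, ETV5, ETS1 and EHF lie farther than 6 from 0 for both comparisons of PC3 cells.

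Levels of different genes were set side by side per kb of merged exon. That length counts all annotated exons of a gene, whichever transcript is expressed. The 10 members made up 68.7% to 71.0% of the CPM per kb of all 28 family genes in PC3 libraries. They made up 82.2% to 82.9% with DHT and 73.8% to 75.2% with vehicle. The summed level of the family was 292 to 318 CPM per kb in PC3 libraries, 428 to 452 with DHT and 253 to 271 with vehicle. The leading genes changed with the line. In PC3 cells the means stood in the order ETV4 (57.9 CPM per kb), SPDEF (51.4), ETS1 (42.6) and ETV5 (35.7), and the libraries of each of these overlapped with those of the next. They were followed by ETS2 (16.3), ETV1 (7.48), ELF3 (2.12), EHF (0.941), FLI1 (0.709) and ERG, without overlap between neighbours.

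On this scale the order of the leading genes in LNCaP cells turned on androgen. With DHT, SPDEF (194 CPM per kb) stood above EHF (125), ETV1 (32.5), ELF3 (7.42), ETS2 (2.42) and ETS1 (0.305), and with vehicle EHF (124) stood above SPDEF (37.5), ETV1 (25.7), ELF3 (4.33), ETS2 (1.67) and ETS1 (0.351). Neighbours in these orders did not overlap. ETV5 and ETV4 came next and overlapped with each other in both groups. In CPM, without division by length, EHF had the highest mean of the members in both groups, 824 with DHT and 823 with vehicle. SPDEF had 372 CPM with DHT and 71.8 CPM with vehicle, where ETV1, at 246 CPM, stood above it. SPDEF made up 44.3% ± 0.617 of the family's CPM per kb with DHT and 14.4% ± 0.319 with vehicle, whereas EHF made up 28.4% ± 0.936 and 47.7% ± 0.806. In PC3 cells ETV4 made up 18.9% ± 1.45, SPDEF 16.7% ± 1.85, ETS1 13.8% ± 0.883 and ETV5 11.6% ± 0.778.

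**Figure D3:**
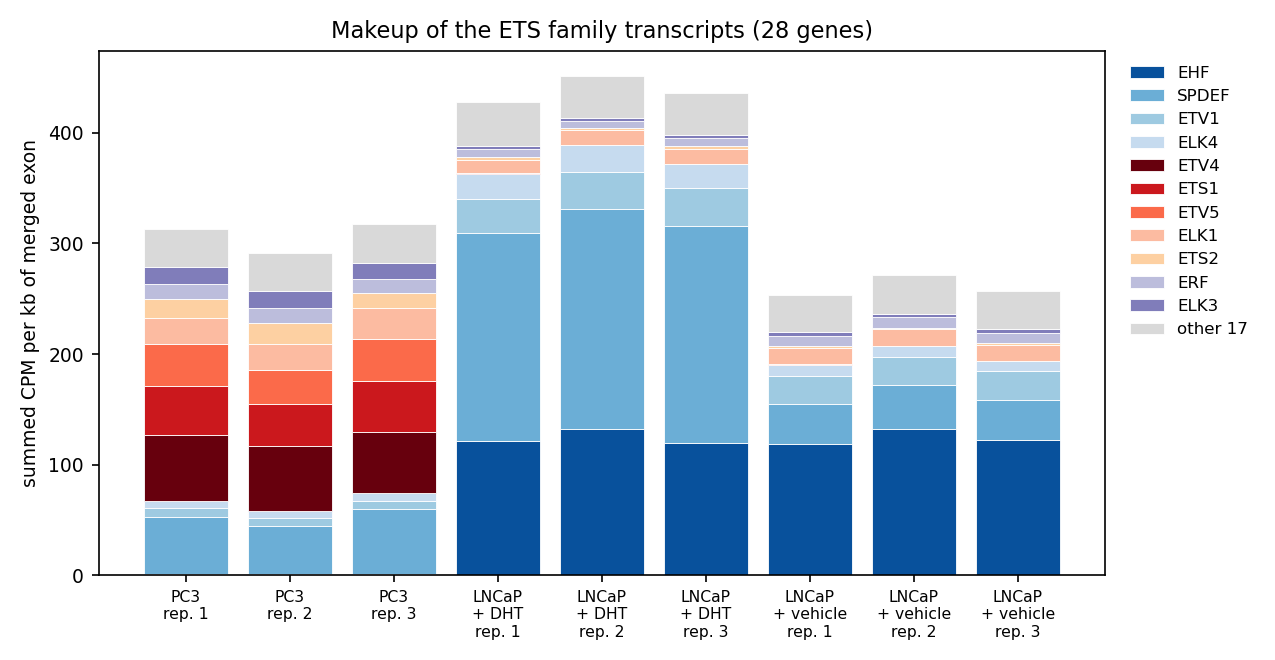
Summed level of the 28 ETS family genes in each library, in CPM per kb of merged exon, stacked by gene. EHF and SPDEF fill most of each LNCaP bar and SPDEF is thicker with DHT, whereas PC3 bars are shared among ETV4, SPDEF, ETS1, ETV5 and others.

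Of the 18 other family genes, 10 passed the filter in each comparison. In PC3 cells 3 of these 10 were higher and 2 lower than with DHT by the same rule, beside 24.0% and 22.1% of all genes tested. ELK3, a ternary complex factor that works with serum response factor, had a log2 fold change of 2.45 (SE 0.09, adjusted p = 1.15e-07), and ELF4 had 1.91 (SE 0.13, adjusted p = 3.58e-06). GABPA, the ETS subunit of a factor of mitochondrial and housekeeping genes, had 1.06 (SE 0.09, adjusted p = 1.56e-05). That value is uncertain, since without the DHT-treated library 3 it was 0.97 and no longer called. Of the 74-base stretches of GABPA, 28.1% are not unique to it, with either strand counted as a match. The part of these stretches in the forward-strand counts was not tested. ELK4, another ternary complex factor, had -1.78 (SE 0.07, adjusted p = 2.25e-07) and ELF2 -1.13 (SE 0.08, adjusted p = 4.92e-06). Against vehicle-treated cells ELK3 (2.25) and ELF4 (2.38) were called higher and ELF2 (-1.11) lower, beside 22.2% and 21.0% of all genes tested. The median log2 fold change of the 10 was 0.74 against DHT-treated and 0.30 against vehicle-treated cells, beside 0.04 and 0.03 over all genes tested. ELK1 and ERF lay just under the limit against DHT-treated cells, at 0.98 and 0.97. ELK1 passed it without PC3 library 1 (1.02), PC3 library 2 (1.02) or DHT-treated library 3 (1.02), and ERF without PC3 library 3 (1.02) or DHT-treated library 1 (1.007).

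ELK4 was the other family gene called with androgen, 1 of 10 tested beside 14.0% of all genes. It had 6124, 6071 and 5307 counts in DHT-treated and 2220, 2101 and 2060 in vehicle-treated LNCaP libraries, a log2 fold change of 1.32 (SE 0.05, adjusted p = 1.48e-10). ELK4, at chr1:205597556-205632011, lies next to and downstream of SLC45A3, at chr1:205657851-205680509, on the same strand. SLC45A3 codes for prostein, and transcripts that run from it into ELK4 are known from prostate cells. SLC45A3 rose from 1425 to 1561 counts with vehicle to 24694 to 28585 with DHT, a log2 fold change of 4.03 (SE 0.06, adjusted p = 3.81e-14). Its part in the counts of ELK4 was not tested. ETV6, a repressor of the family, had a log2 fold change of -0.87 with DHT (SE 0.08, adjusted p = 4.62e-07), under the limit. The other tested genes lay between -0.43 (ERF) and 0.56 (ELF1).

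The 8 family genes that did not pass the filter were ELF5, FEV, ETV2, ETV3L, ETV7, SPI1, SPIB and SPIC. ETV3L had 0 counts in every library, and SPIB and SPIC, factors of blood cells like SPI1, had at most 1 and 3 counts. FEV had 0 counts in PC3 libraries, 14, 19 and 7 with DHT and 3, 2 and 2 with vehicle. ETV2 had 9 to 18 counts in PC3 and 40 to 63 in LNCaP libraries. ETV7 had 1 to 2 and 6 to 12 counts in PC3 and LNCaP libraries, and SPI1 2 to 5 and 6 to 15.

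Genes known as partners in rearrangements of ETS genes in prostate cancer were read in LNCaP cells at levels that often differed between DHT and vehicle. MIPOL1 was listed among them for the insertion of ETV1 within it. Of 13 such genes, 7 were called higher with DHT and 0 lower, while 6.54% of all genes tested were called higher and 7.49% lower. They were FKBP5 (log2 fold change 4.90, SE 0.05), NDRG1 (4.80, SE 0.15), KLK2 (4.17, SE 0.12), ACSL3 (4.098, SE 0.05), SLC45A3, TMPRSS2 (3.45, SE 0.08) and HERPUD1, which was 2.83-fold higher, with adjusted p from 3.66e-15 to 1.31e-10. TMPRSS2, a membrane serine protease and the most frequent partner of ERG, had 38884 to 43679 counts with DHT and 3070 to 3780 with vehicle, beside 0 counts of ERG with DHT and 1 with vehicle. Not called were CANT1 (0.94), FOXP1 (0.08), DDX5 (-0.23), MIPOL1 (-0.37), HNRNPA2B1 (-0.49) and UBTF (-0.53). All of these but FOXP1 had an adjusted p under 0.05, as had 8763 of all 11697 genes tested. The median log2 fold change of the 13 genes was that of HERPUD1, and over all genes tested the median was -0.01. The list was written knowing earlier results of these libraries, so its direction is no independent evidence.

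**Figure D4:**
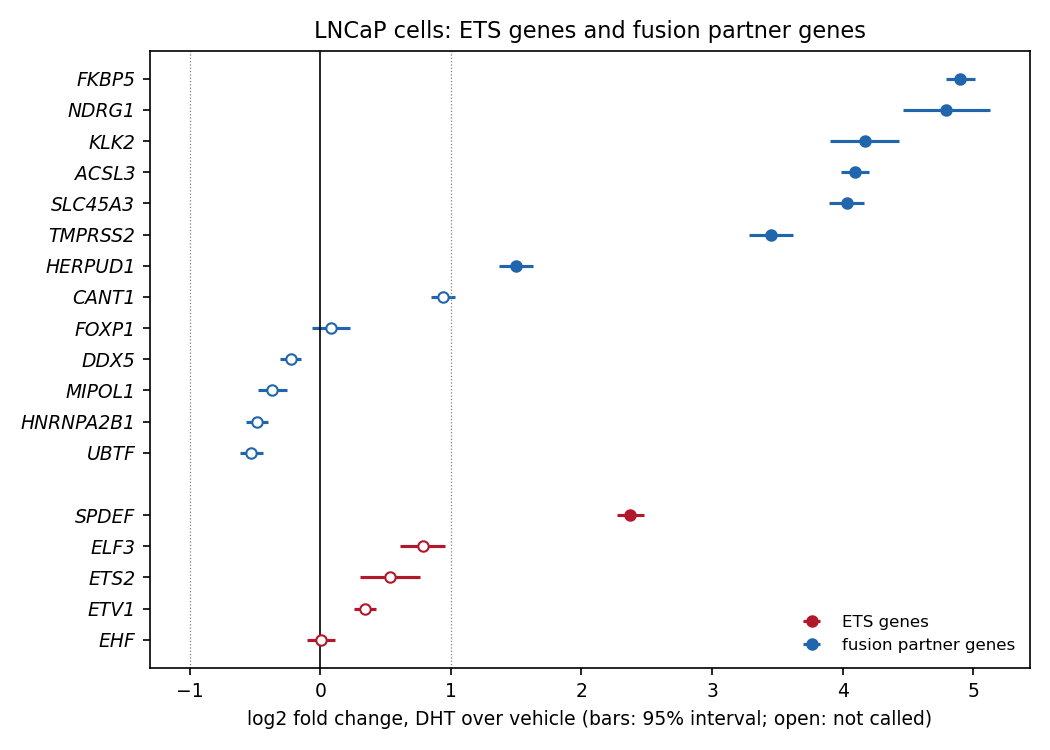
Log2 fold changes of DHT-treated over vehicle-treated LNCaP cells with 95% intervals from edgeR, with filled points for genes called. Shown are 13 genes known as partners in rearrangements of ETS genes, MIPOL1 among them, and the 5 ETS members that passed the filter. 7 partner genes lie to the right of the dotted line at a 2-fold difference, and of the ETS members SPDEF lies there.

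In PC3 cells 6 of the 13 partner genes were called lower and 2 higher against DHT-treated LNCaP cells, and 4 lower and 3 higher against vehicle-treated ones. Of all genes tested, 22.1% were called lower and 24.0% higher in the former comparison, and 21.0% and 22.2% in the latter. FKBP5 had log2 fold changes of PC3 cells of -7.19 against DHT-treated and -2.27 against vehicle-treated LNCaP cells, and SLC45A3 had -6.62 and -2.57. ACSL3, a ligase of long-chain fatty acids, had -4.01 (SE 0.09) against DHT-treated cells and was not called against vehicle-treated ones (0.11). TMPRSS2 had 703, 544 and 974 counts in PC3 libraries, which were -6.08 (SE 0.19) and -2.60 (SE 0.18) on this scale. KLK2 had 0 counts in PC3 libraries and was at least 5346-fold and at least 298-fold lower than in DHT-treated and vehicle-treated cells. FOXP1, a forkhead factor, was higher in PC3 cells, by 1.97 and 2.07, and UBTF, a factor of ribosomal RNA genes, by 1.45 against DHT-treated cells. NDRG1 was lower in PC3 than in DHT-treated cells (-2.62) and higher than in vehicle-treated cells (2.19), and HERPUD1 was higher than in vehicle-treated cells (1.17).

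Genes known to rise with MAPK signalling, the cascade that acts on ETV1, ETV4, ETV5, ETS1 and ETS2, were higher in PC3 cells. Of 11 such genes 10 passed the filter, and 10 of 10 were called higher against each LNCaP group, where 24.0% and 22.2% of all genes tested were called higher. Here too some passed the filter through PC3 cells alone, namely PHLDA1, SPRY2 and DUSP6 in both comparisons and also SPRY4 and DUSP5 against vehicle-treated cells. Of those above 3 CPM in every library of both groups, 7 of 7 and 5 of 5 were called higher. This list too was written knowing earlier results of these libraries, so its direction is no independent evidence. Whether MAPK signalling had a part in the levels of the ETS members was not tested. Against DHT-treated cells the largest differences were those of PHLDA1 (8.71, SE 0.39, and 9.58 without the DHT-treated library 1), the ERK phosphatase gene DUSP6 (7.57, SE 0.10) and the ephrin receptor gene EPHA2 (6.80, SE 0.20). Against vehicle-treated cells they were those of SPRY4, an inhibitor of receptor tyrosine kinase signalling (10.22, SE 0.30), PHLDA1 (8.02, SE 0.20) and DUSP6 (7.55, SE 0.28). Without the vehicle-treated library 1 the values of SPRY4 and DUSP6 were 11.20 and 8.30. SPRY4 was also the gene of this list called with DHT. It had 179, 71 and 92 counts with DHT and 14, 2 and 5 with vehicle, and passed the filter through the DHT-treated libraries alone, with a log2 fold change of 3.86 (SE 0.46, adjusted p = 5.66e-06) and of 4.84 without the vehicle-treated library 1.

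Of 8 genes that act on ETS proteins or repress their genes, 1 was called in either comparison of PC3 cells and 0 between DHT and vehicle, beside 46.0% and 43.2% of all genes tested for PC3 cells and 14.0% for DHT. Below the 2-fold limit, 5 of the 8 had an adjusted p under 0.05 between DHT and vehicle, beside 8763 of all 11697 genes tested. The gene called was COP1, the adaptor through which PEA3 proteins are degraded. COP1 had 107, 93 and 99 counts in PC3 libraries, 1121, 961 and 1006 with DHT and 915, 858 and 946 with vehicle. The log2 fold changes of PC3 cells were -3.60 (SE 0.09, adjusted p = 2.75e-08) and -3.53 (SE 0.08, adjusted p = 2.27e-08), and between DHT and vehicle COP1 was at 0.05 with a 95% interval from -0.05 to 0.16. CIC, the repressor of the PEA3 genes, had log2 fold changes of PC3 cells of -0.65 (adjusted p = 8.17e-05) and -0.69 (adjusted p = 3.14e-05). Both lay under the 2-fold limit and were not called. Of the 8 genes, COP1 included, 7 had an adjusted p under 0.05 against DHT-treated and 5 against vehicle-treated cells. The same held for 10530 of all 12541 genes tested in the former comparison and 10577 of 12686 in the latter. The log2 fold changes of the remaining 6 (ATXN1, ATXN1L, DET1, SPOP, USP9X and FBXW7) lay between 0.01 and 0.72 for PC3 cells.

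The few reads of ETV4, ETV5 and ETS1 in LNCaP libraries were set beside those of other genes that were high in PC3 cells. For 81 genes outside the family, chosen on these counts as above 100 CPM in every PC3 library and below 1% of the PC3 mean in every LNCaP library, the summed level in LNCaP libraries was 0.536%, 0.139% and 0.120% of the PC3 mean with DHT and 0.334%, 0.133% and 0.167% with vehicle. The 2 libraries numbered 1 had the highest values of their groups. ETV4 followed the order of the summed level in both groups, at 0.637%, 0.0969% and 0.0743% with DHT and 0.438%, 0% and 0.150% with vehicle. ETV5 lay between 0.293% and 0.687% and ETS1 between 0.529% and 0.860%, above the summed value in each of the 6 libraries. In PC3 libraries, 18 genes chosen the same way in LNCaP cells had 0.130%, 0.126% and 0.130% of their LNCaP mean, and EHF had 0.635%, 0.660% and 0.974% of its own. Whether any of these reads came from cells or RNA of the other line was not tested. Without both LNCaP libraries numbered 1, a choice made after these values were seen, SPDEF was again the member called between DHT and vehicle.

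**Figure D5:**
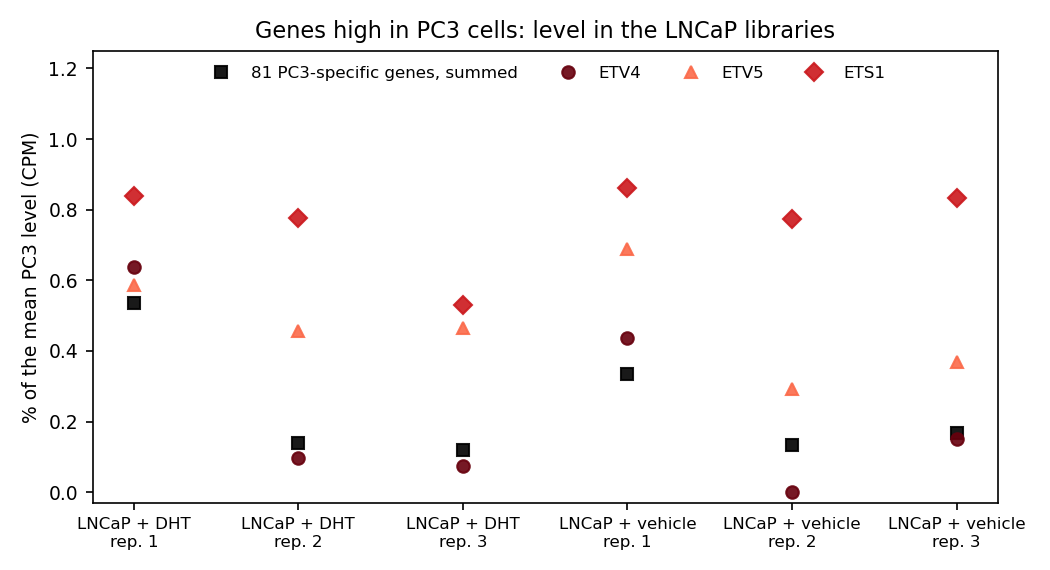
Level of ETV4, ETV5 and ETS1 and summed level of 81 other genes high in PC3 cells, in each of the 6 LNCaP libraries, as a percent of the mean PC3 level in CPM. The summed level and ETV4 are highest in the library numbered 1 of each group, and ETS1 lies above the summed level in every library.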

How the data were processed

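The deposited values are counts, whole numbers of reads per gene and library without normalization. The labels list cutadapt 4.1, STAR 2.7.7a and UMI-tools 1.1.2 with GRCh38, and the study's methods give other versions of cutadapt and STAR. Libraries were poly(A)-selected KAPA HyperPrep libraries, read as single ends. All 253944 deposited counts equalled STAR's forward-strand counts, so antisense reads are left out, and 0 other columns of values were present.

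The 6 libraries of a comparison were fitted alone with edgeR 4.0.16 (R 4.3.3), TMM factors and the quasi-likelihood F test, and the methods were tested on simulated data. The batch term of the study was left out because the batches are not named. Deviations of same-numbered DHT-treated and vehicle-treated libraries correlated at 0.20, 0.23 and 0.21, which pairs these libraries by the counts alone; PC3 libraries were not paired. Alternatives were DESeq2 1.42.0, a likelihood ratio test, a replicate block, other filters and thresholds, unstranded counts and leaving out libraries. Lengths and coordinates are from GENCODE 44 on GRCh38, and 25696 of 28216 symbols were found there.

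All 10 members are named, with every other ETS gene, ETV1 neighbours and, of the other lists, the called genes with the 3 largest differences per comparison; further genes of these lists were named after their values were seen. Some genes of the neighbour and marker lists are not reported here. The members and lists were chosen with earlier results of these data known. Promoters of ETV4, ETV5, FLI1 and ETS1 and protein sequences were not used here.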

Additional observations from a re-analysis of the deposited data

Results flagged for a closer look

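Reads on the reverse strand are not part of the deposited counts. On the 10 members they came to 820 over the 9 libraries, or 0.342% of the reads on both strands, while over all genes the share was 2.33% to 3.06% per library. On GABPA there were 2645 such reads, or 27.3% of the reads on both strands, and ATP5PF lies among the genes whose transcripts share 74-base stretches with it. Both were singled out because they are signals in data that the comparisons do not use, with no control group to set them against. With unstranded counts the number of members called was 9, 1 and 8 in the comparisons of PC3 with DHT-treated cells, of DHT with vehicle and of PC3 with vehicle-treated cells, as with the forward strand.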

How the results depend on the processing

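For PC3 against DHT-treated LNCaP cells, 142 of 142 values of the members under 16 alternatives kept direction and call. Between DHT and vehicle 78 of 85 did, and for PC3 against vehicle-treated cells 134 of 142, the 7 lost calls being those of ELF3. With the replicate block, 5756, 1638 and 5495 genes and 9, 1 and 8 members were called in the comparisons of PC3 with DHT-treated cells, of DHT with vehicle and of PC3 with vehicle-treated cells, beside 5773, 1641 and 5485 genes without it, and no call of a named gene changed. Without a filter on low counts 9147, 2941 and 8713 genes were called, and with the adjusted p alone 10530, 8763 and 10577. The adjusted p alone called 4 members between DHT and vehicle (ETV1, ELF3, SPDEF, ETS2). With at least 10 counts in every library, 5 members were called for PC3 against vehicle-treated cells, because ETV4 and FLI1 were no longer tested and ELF3 fell to -0.97.

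Values near 0 changed sign. ELF2 with DHT, at -0.004, was 0.00206 with DESeq2 size factors, 0.00225 with the DESeq2 Wald test, 0.0157 without a filter, 0.00653 with at least 10 counts in every library and 0.00615 without both LNCaP libraries numbered 1. When single libraries were left out it lay between -0.0388 and 0.0229, EHF between -0.0435 and 0.0474 and FOXA1 between -0.0173 and 0.0697, and ELF1 for PC3 against vehicle-treated cells between -0.0465 and 0.0752. EHF was at -0.0151 without both libraries numbered 1. The cause was not tested. Genes of a few counts, ERG above all, were limited by depth.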

Other observations

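Without the filter on low counts, 2 ETS genes outside the 10 passed the threshold between DHT and vehicle in addition to ELK4. The share of all genes called in that fit is not given here, so these calls are a description. FEV, an ETS gene known from serotonergic neurons, had a log2 fold change of 2.34 (adjusted p = 0.000869, edgeR's quasi-likelihood test) on 2 to 19 counts per library. ELF5, a factor of luminal epithelial progenitors, had -1.05 (adjusted p = 0.00033) on 22 to 61 counts. In the same fit ETV4 (0.51, adjusted p = 0.56), ETV5 (0.18, adjusted p = 0.668) and ETS1 (-0.18, adjusted p = 0.478) were not called.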
